A study of Mus musculus with 46 samples.

Results

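Left ventricle of C57BL/6J mice was compared between day 1 after an experimental myocardial infarction and day 0, in the region that the infarct occupies, across all probe sets of the array. The members are the 7 arrays whose titles place them in C57 infarct tissue at day 0 or day 1, out of 46 arrays in 12 groups of strain, region and day. The mice were males aged 15 to 20 weeks. At day 1 (4 arrays) the left coronary artery had been tied off through an opened chest under isoflurane, and the tissue is the infarct with its border. At day 0 (3 arrays) the heart was unoperated and the tissue is the matching region of the ventricle. Hearts were cooled in a potassium-rich solution with a contraction blocker, and the region was punched out and frozen. No sham-operated group was analysed here, so the infarction, the operation, the anaesthetic and the analgesic cannot be told apart. Each array is called a biological replicate in the labels, which do not name the animals, so the p-values measure the spread between samples within groups. That spread is pooled over the 23 infarct arrays of both strains (C57 and MRL) and of days 0, 1 and 5. Where regions are compared it is pooled over all 46 arrays.

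A myocardial infarction begins when a coronary artery is closed and the muscle it feeds loses oxygen. Cardiac muscle cells lean on fatty acid oxidation in their many mitochondria, and within minutes to hours the deprived cells stop contracting, swell and die. Dying cells release molecules that innate immune receptors detect, and surviving muscle, endothelium and fibroblasts make chemokines that draw neutrophils first and monocytes soon after. Clearance of the dead muscle is followed by a provisional matrix and later by a collagen scar. Day 1 lies in the inflammatory phase of that course.

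Levels below are log2 intensities of a gene's probe set, given in the order of replicate numbers, and changes are day 1 minus day 0 on that scale with the standard error of the fit, so that 1 is a 2-fold difference. A gene was called when the limma test, adjusted by Benjamini and Hochberg over all 12834 probe sets tested, gave an adjusted p under 0.05. The array medians of the 7 arrays lay between 4.26 and 4.48, and a level below them is near the background of the array, so the size of a change from or to such a level is not exact. Pearson correlations of log2 intensity over probe sets were 0.976 to 0.986 within day 0, 0.905 to 0.970 within day 1 and 0.857 to 0.943 across the days. The day 0 arrays carried the heart: the 21 listed genes of cardiac muscle identity were all tested and none had a mean below the array medians at day 0. The 9 listed skeletal muscle markers lay between 1.48 and 3.99 on the 7 arrays. Of the 5 listed atrial markers Myl7, Sln and Bmp10 lay between 1.85 and 2.99. The other 2, Nppa among them, were tested, and 0 of the 2 had a day 0 mean below the array medians. Their summed intensity was 2502 to 4611 at day 0. The tissue was not sorted, so fewer cells of a type and less RNA per cell cannot be told apart in the results that follow.

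In all, 1995 of the 12834 probe sets tested were called, 1205 higher at day 1 (9.39%) and 790 lower (6.16%). Counted by gene, 721 of 7608 were higher (9.48%) and 538 lower (7.07%), and these shares are the background for each gene list below. A gene near the array background at day 0 could enter the test only through later arrays or other mice in which it is higher, so a list's count over such members is a description. Over all genes tested 753 of 7608 were of this kind. They included 7 of 7 tested neutrophil markers, 10 of 25 of macrophages, 4 of 10 CXC and 4 of 8 CC chemokines. They also included 6 of 13 genes of interleukin 1 and TNF, 9 of 12 innate receptors, 5 of 16 NF-kB and 5 of 11 prostaglandin genes. Further such genes were 14 of 30 of DNA replication and mitosis, 7 of 19 of the interferon response and 6 of 24 matricellular genes. Matrix proteases and inhibitors had 6 of 17, integrins and adhesion genes 5 of 17, and several other lists held some. The rises were the larger changes: 187 of the 721 exceeded 4-fold and 46 exceeded 16-fold, against 38 and 1 of the 538 falls. The median size was 1.40 among the rises and 1.09 among the falls. A low starting level inflates a ratio, and with 32 added to every intensity before the logarithm 118 rises and 12 falls still exceeded 4-fold. On the 7 arrays alone 1429 of 11675 probe sets tested were called. Without 1 of the day 0 arrays the count of probe sets called fell to between 1178 and 1323. Without day 1 replicate 3 the count of falls was 519, and without day 0 replicates 2 and 3 it was 353 and 380, while rises numbered 776 without day 0 replicate 1.

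The 5 largest rises among genes that started below the array medians were those of Lcn2, S100a9, S100a8, Hspa1a and Timp1, ranked with 32 added to the intensities. Lcn2, which encodes an iron-siderophore binding protein of neutrophil granules and of stressed epithelium and muscle, read 2.81, 2.77 and 2.51 at day 0 and 10.36, 11.05, 10.60 and 11.56 at day 1, a change of 8.20 ± 0.36 (adjusted p = 4.1e-12). The 4 day 1 arrays stood close together and far above the day 0 arrays. Timp1, a secreted inhibitor of matrix metalloproteinases, read 2.77, 2.70 and 2.68 at day 0 and 8.27, 10.04, 11.17 and 10.67 at day 1, where replicate 1 was the lowest of its group and still over 5 units above day 0. Its change was 7.32 ± 0.60 (adjusted p = 1e-07). Angptl4, an inhibitor of lipoprotein lipase, read 3.38, 3.23 and 3.62 at day 0 and 8.45, 9.48, 9.73 and 10.35 at day 1, a change of 6.09 ± 0.65 (adjusted p = 2.5e-06).

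Among genes whose means lay above the array medians on both days, the largest rise was that of Prg4, which encodes the lubricant glycoprotein lubricin. It read 3.81, 5.48 and 5.90 at day 0 and between 11.26 and 12.30 in the 4 infarcts, a change of 6.89 ± 0.59 (adjusted p = 1.6e-07). Hbegf, a membrane-bound growth factor for EGF receptors, read 6.43, 6.68 and 6.73 at day 0 and 11.80, 11.44, 11.99 and 11.75 at day 1, with the 4 infarcts close together, and its change was 5.13 ± 0.53 (adjusted p = 1.6e-06). Bcr, a GTPase regulator, changed by 4.87 ± 0.47 (adjusted p = 7.9e-07), and Uck2, a uridine-cytidine kinase of nucleotide salvage, by 4.55 ± 0.35 (adjusted p = 3.8e-08). Uck2 read 6.19, 6.52 and 6.78 at day 0 and 10.82, 10.55, 11.62 and 11.20 at day 1, with no overlap between the days.

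The largest fall on plain log2 among genes whose means lay above the array medians on both days was that of Asb10, a muscle-enriched ankyrin repeat protein that recruits targets to a ubiquitin ligase. It read 8.56, 8.78 and 8.77 at day 0 and 4.84, 5.69, 3.40 and 4.72 at day 1, a change of -4.04 ± 0.94 (adjusted p = 0.006). With 32 added, Dbp fell more, by 3.29 against 2.91 for Asb10. Msrb2, a mitochondrial methionine sulfoxide reductase, fell to 5.26, 5.14, 3.92 and 5.84 from 7.63, 8.26 and 8.11, a change of -2.96 ± 0.67 (adjusted p = 0.0048). Il15, a cytokine that muscle makes, read 6.97, 7.48 and 8.22 at day 0 and 5.13, 5.18, 4.10 and 4.66 at day 1 and changed by -2.79 ± 0.51 (adjusted p = 0.00092). Slc38a3, a glutamine transporter, changed by -2.64 ± 0.65 (adjusted p = 0.0091), Mtfp1, a mitochondrial fission protein, by -2.60 ± 0.66 (adjusted p = 0.011), and Abca8a, a lipid transporter, by -2.61 ± 0.39 (adjusted p = 0.00012). Frmd5 changed by -2.88 ± 0.79 (adjusted p = 0.017), a call lost without day 0 replicates 2 and 3 (adjusted p up to 0.07). Islr and Ogn, both leucine-rich repeat proteins of fibroblasts, and Htra3, a secreted serine protease, fell as well. Islr read 8.21, 8.67 and 8.66 at day 0 and 7.26, 6.34, 4.54 and 4.11 at day 1, Ogn 9.14, 8.82 and 8.92 at day 0 and 7.07, 6.87, 5.24 and 6.28 at day 1 and Htra3 9.47, 9.34 and 8.86 at day 0 and 7.51, 7.18, 4.38 and 7.42 at day 1. In each of the 3 the fall was larger in day 1 replicate 3 than in replicates 1 and 2.

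**Figure D1:**
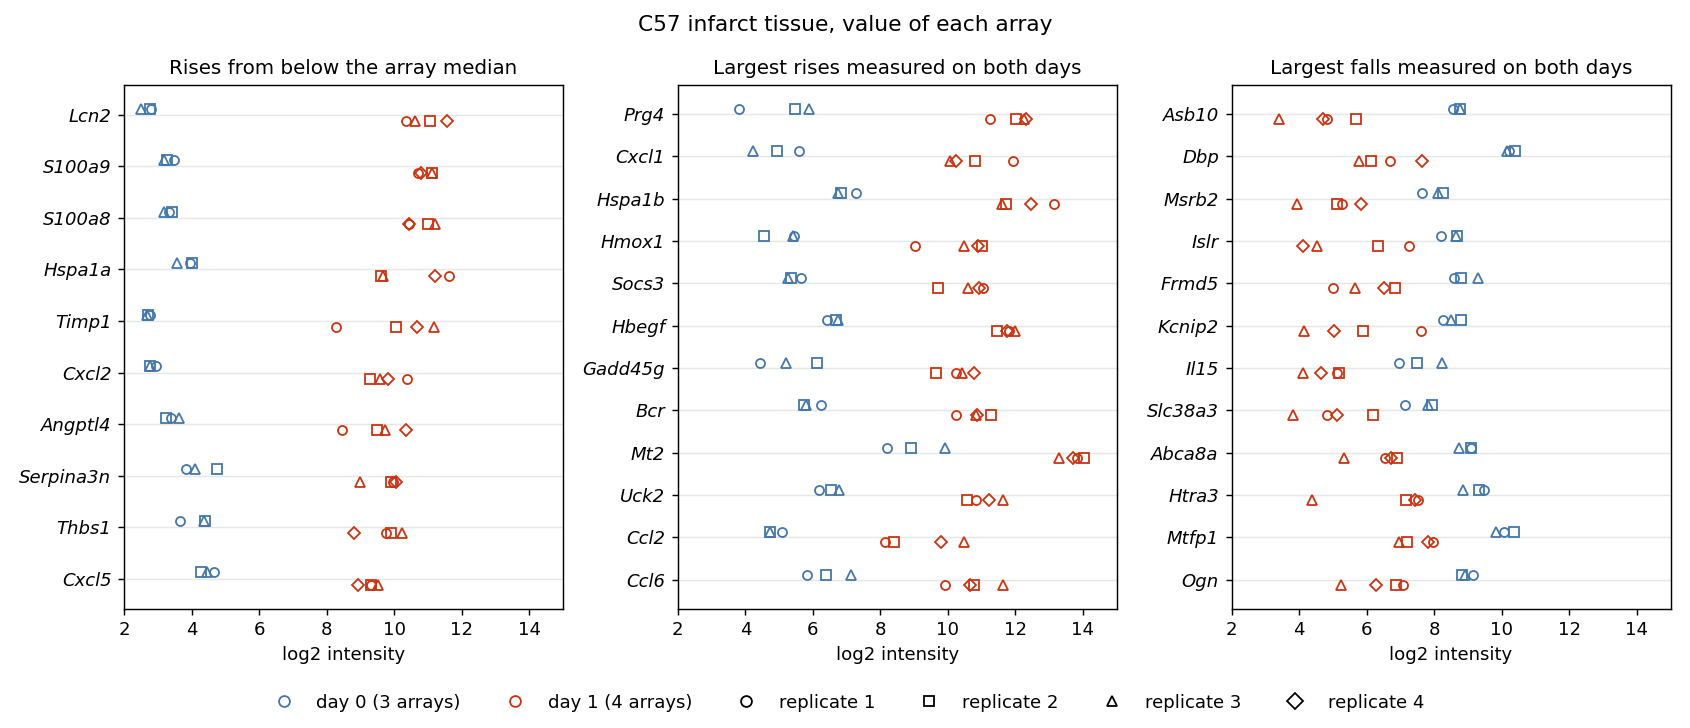
Log2 intensity on each of the 7 C57 infarct arrays for the 10 largest rises from below the array medians, the 12 largest rises and the 12 largest falls measured on both days. Blue marks are the 3 day 0 arrays, red marks the 4 day 1 arrays, and the shape gives the replicate number. In every row the days do not overlap, which was part of the rule that chose these genes.

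The 4 infarcts were not alike in how far, or in which direction, they had moved. On the first principal component of the 7 arrays (60.4% of the variance) the day 0 arrays lay at -51.4, -53.3 and -54.0, day 1 replicates 1 and 2 at 12.9 and 13.2, and replicates 3 and 4 at 76.8 and 55.8. On the second (19.2%) the day 0 arrays lay at -13.0, -16.4 and -9.4, and day 1 replicates 1 to 4 at 57.4, 26.1, -31.0 and -13.7. Replicate 3 held the highest of the 4 values for 403 of the 721 genes called higher (55.9%), replicate 4 for 146, replicate 2 for 90 and replicate 1 for 82. For the 538 genes called lower, replicate 3 held the lowest value for 257 (47.8%) and replicate 1 for 154. The 3′ over 5′ log2 signal of the Gapdh control probe sets, a sign of RNA integrity, was -0.18, -0.14 and -0.22 at day 0 and -0.18, -0.19, 0.02 and 0.41 in day 1 replicates 1 to 4. The same measure of the Actb control probe sets was 1.29, 1.15 and 0.94 at day 0 and 1.38, 1.28, 1.40 and 1.50 at day 1. Whether RNA integrity bears on the differences between these arrays or days was not tested.

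Some gene lists lay at a like distance from day 0 in the 4 infarcts and others lay farther from it in replicates 3 and 4. The median change of the neutrophil markers was 3.68, 3.25, 3.86 and 3.57 in replicates 1 to 4, that of the immediate early genes 1.25, 0.99, 1.16 and 1.16, and that of NF-kB target and feedback genes 1.03, 0.73, 1.10 and 1.05. The monocyte and macrophage markers were at 0.31, 0.47, 2.06 and 1.85, ribosome biogenesis genes at 0.49, 0.52, 1.77 and 1.34, and actin cytoskeleton genes at 0.46, 0.72, 1.88 and 1.24. Genes of energy metabolism went the other way in the same arrays: the respiratory chain stood at -0.27, -0.25, -1.0 and -0.58 and fatty acid oxidation at -0.27, -0.13, -1.17 and -0.68. These medians describe 4 arrays and were not tested against each other. With 32 added to the intensities, the 8 called genes with the widest spread among the 4 infarcts were Arg1, Chil3, Sprr1a, Tgfbi, Lgals3, Tnc, Inhba and Fn1. In all 8 of them replicates 3 and 4 lay above replicates 1 and 2. On plain log2 the order differs and takes in falls such as that of Aplnr, whose replicate 1 was lowest.

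**Figure D2:**
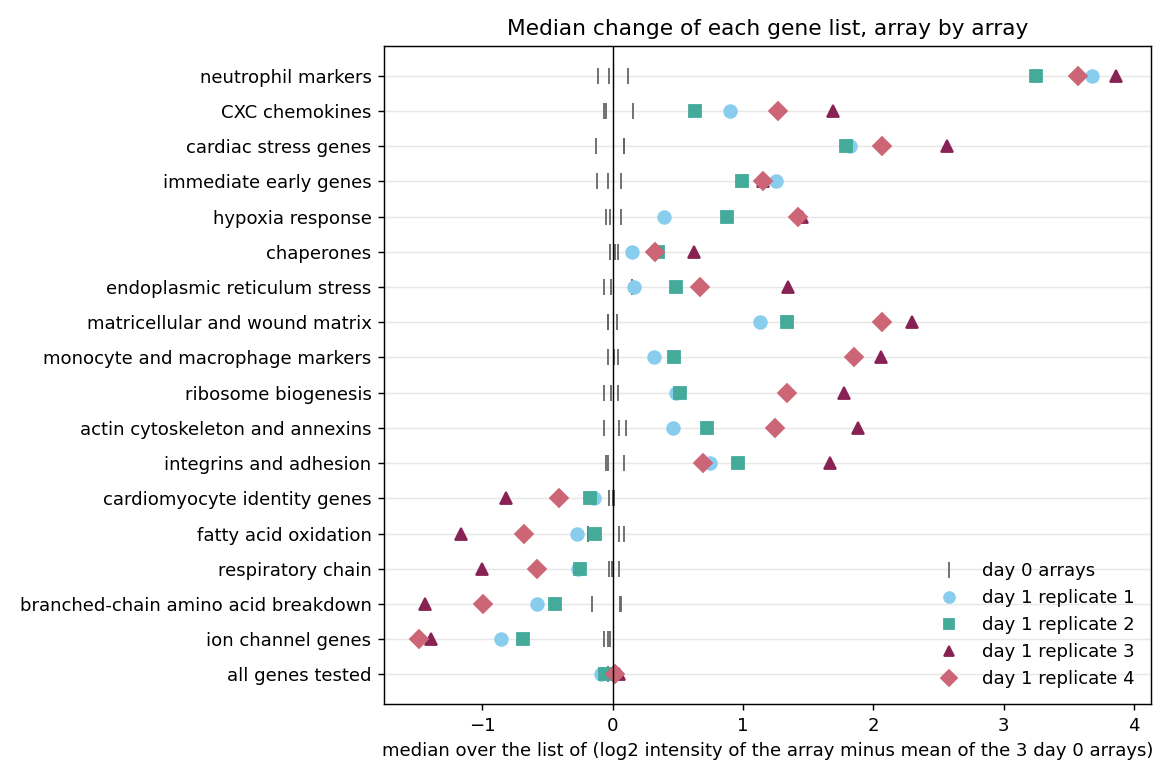
Median over the tested genes of each list of the log2 intensity of 1 array minus the mean of the 3 day 0 arrays. Grey ticks are day 0 arrays and coloured marks the day 1 replicates. Neutrophil markers lie between 3.25 and 3.86 in the 4 infarcts, while macrophage markers split into 0.31 and 0.47 against 2.06 and 1.85.

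Calprotectin and other genes of neutrophils rose in all 4 infarcts. Of 21 listed markers 7 were tested, all 7 with a day 0 mean below the array medians, and 5 of these were called higher and 0 lower. Another 10 were on the array and did not pass the filter, and 0 of them had a day 1 mean above the array medians. S100a9 and S100a8 encode the subunits of calprotectin, an abundant cytosolic protein of neutrophils. S100a9 read 3.47, 3.27 and 3.19 at day 0 and 10.72, 11.12, 11.11 and 10.79 at day 1 and S100a8 3.32, 3.41 and 3.20 at day 0 and 10.44, 10.99, 11.22 and 10.44 at day 1, so that the 4 infarcts lay within 1 unit of each other in both genes. The changes were 7.63 ± 0.53 (adjusted p = 9.2e-09) and 7.47 ± 0.48 (adjusted p = 3.5e-09). Il1r2, the decoy receptor for interleukin 1, changed by 3.59 ± 0.40 (adjusted p = 3.2e-06). Fpr2, a formyl peptide receptor, read 3.02, 3.03 and 2.81 at day 0 and 3.67, 3.89, 6.57 and 5.75 at day 1 and changed by 2.01 ± 0.62 (adjusted p = 0.031), a call lost without any 1 of the day 0 arrays, without day 1 replicates 3 or 4, with no filter, and with 32 added (adjusted p up to 0.12 without 1 array). The summed intensity of the 7 markers was 74.5 to 84.4 at day 0 and 4663 to 6604 at day 1. Of the markers that were not tested Mmp8, neutrophil collagenase, read 2.35, 2.23 and 2.27 at day 0 and 2.84, 5.27, 4.06 and 4.82 at day 1, and Csf3r, the receptor for granulocyte colony-stimulating factor, 2.67, 2.62 and 2.56 at day 0 and 2.76, 2.76, 3.72 and 3.51 at day 1. Granule protein genes that are transcribed in the bone marrow stayed near the background: Mpo read 2.68, 2.42, 2.49 and 2.52 at day 1 and Ltf 2.78, 2.51, 2.56 and 2.56.

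The chemokines that attract neutrophils rose with them. In the CXC list 5 of 10 tested genes were higher and 1 lower. Cxcl1, a ligand of the neutrophil receptor CXCR2, read 5.59, 4.95 and 4.23 at day 0 and 11.94, 10.80, 10.07 and 10.25 at day 1, a change of 5.84 ± 0.86 (adjusted p = 9.5e-05). Its values were highest in replicate 1, one of the infarcts that had moved least along the first component. Cxcl2, a ligand of the same receptor, was at the background in all 3 unoperated hearts and read 2.95, 2.77 and 2.75 at day 0 and 10.37, 9.27, 9.57 and 9.83 at day 1, a change of 6.93 ± 0.96 (adjusted p = 4.8e-05). Cxcl5 changed by 4.81 ± 0.78 (adjusted p = 0.00026), and Ppbp, a platelet chemokine whose products act on the same receptor, by 5.61 ± 0.71 (adjusted p = 1.8e-05). Ppbp read 7.13, 9.03, 8.07 and 7.68 at day 1. Cxcl12, which holds progenitor cells in place through CXCR4, was the gene that fell, from 9.67, 9.78 and 9.82 at day 0 to 8.35, 8.74, 9.08 and 9.07 at day 1, a change of -0.94 ± 0.19 (adjusted p = 0.0021). Pf4, a second platelet chemokine, reached 1.44 ± 0.48 (adjusted p = 0.047) and lost its call without 5 of the 7 arrays in turn and under 6 other settings. Cxcl10, a chemokine for T lymphocytes, was at 0.62 (adjusted p = 0.073).

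Cxcl1 and Cxcl2 lie next to each other in a chemokine cluster and rose together, and their promoters are shown because inflammatory induction of both is known to run through NF-kB. The sequences are the 250 bases before the RefSeq gene start on the plus strand of GRCm38.p6, Cxcl1 at chr5:90890995-90891244 and Cxcl2 at chr5:90903649-90903898. Capitals mark matches on either strand to the NF-kB motif GGGNNTTNCC.
Cxcl1: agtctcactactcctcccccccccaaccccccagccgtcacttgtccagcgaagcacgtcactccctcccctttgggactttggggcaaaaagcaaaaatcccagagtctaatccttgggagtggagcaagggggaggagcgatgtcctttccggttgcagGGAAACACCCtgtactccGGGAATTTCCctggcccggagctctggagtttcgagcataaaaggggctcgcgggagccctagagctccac
Cxcl2: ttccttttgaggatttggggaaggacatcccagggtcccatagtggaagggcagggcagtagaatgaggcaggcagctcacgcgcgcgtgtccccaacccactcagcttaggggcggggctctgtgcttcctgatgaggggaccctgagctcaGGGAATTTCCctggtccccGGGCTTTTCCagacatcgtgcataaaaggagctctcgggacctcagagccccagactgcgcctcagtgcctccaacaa
Each promoter held 2 matches. The motif was found in 4.11% of 32851 promoters of this length and in 5.59% of those of 6191 tested genes. In the CXC list it was found in 2 of 4 promoters of genes called higher and in 1 of 3 of those not called. A match describes letters, not binding.

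CC chemokines, which draw monocytes, were higher in 5 of 8 tested genes and lower in 0. Ccl2, the main ligand of the monocyte receptor CCR2, read 5.09, 4.72 and 4.74 at day 0 and 8.13, 8.41, 10.49 and 9.80 at day 1, a change of 4.36 ± 0.58 (adjusted p = 3.1e-05), with replicates 3 and 4 above 1 and 2. Ccl7, a second ligand of CCR2, read 3.06, 3.02 and 2.96 at day 0 and 4.98, 5.38, 7.80 and 6.64 at day 1 and changed by 3.19 ± 0.58 (adjusted p = 0.00079). Ccl6 changed by 4.29 ± 0.46 (adjusted p = 2.4e-06), Ccl9 by 3.46 ± 0.46 (adjusted p = 3e-05) and Ccl12 by 2.74 ± 0.57 (adjusted p = 0.0023). Ccl8, at 0.17 (adjusted p = 0.89), and Ccl11, the eosinophil chemokine, at 0.09 (adjusted p = 0.91), did not pass the test.

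Cytokines and their receptors rose as well. In the interleukin 1 and TNF list 6 of 13 tested genes were higher and 0 lower. Il1b, the pyrogenic cytokine of inflammasome-activated leukocytes, read 4.12, 4.19 and 4.06 at day 0 and 7.54, 7.93, 8.35 and 7.43 at day 1, a change of 3.68 ± 0.72 (adjusted p = 0.0015). Tnfrsf1a, the widely expressed TNF receptor, changed by 2.40 ± 0.50 (adjusted p = 0.0025) and Tnfrsf12a, the receptor of TWEAK, by 1.89 ± 0.46 (adjusted p = 0.0081). The ligand Tnf itself was at 0.14 (adjusted p = 0.67), and the antagonist Il1rn at 0.14 (adjusted p = 0.87). In the interleukin 6 family 8 of 18 genes were higher and 1 lower. Il6 read 3.41, 3.22 and 3.22 at day 0 and 9.46, 7.94, 7.46 and 7.94 at day 1, a change of 4.91 ± 1.10 (adjusted p = 0.0045), again with replicate 1 highest. Socs3, which cytokine receptors of this family induce and which shuts them off, read 5.64, 5.35 and 5.25 at day 0 and 11.05, 9.69, 10.59 and 10.92 at day 1, a change of 5.15 ± 0.56 (adjusted p = 2.6e-06). Osmr, the oncostatin M receptor, changed by 3.17 ± 0.38 (adjusted p = 9.6e-06), Il4ra by 2.19 ± 0.38 (adjusted p = 0.00056) and the kinase Pim1 by 1.63 ± 0.39 (adjusted p = 0.0071). The shared receptor chain Il6st was at -0.19 (adjusted p = 0.64) and Il6ra at -0.04 (adjusted p = 0.92). Lifr, the receptor chain for leukemia inhibitory factor, was the gene called lower, at -1.16 (adjusted p = 0.023), and the count was 0 without day 0 replicates 1 or 3 or day 1 replicate 3.

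Genes that NF-kB signalling induces, among them some that feed back on it, were higher in 7 of 16 and lower in 0, and the count was 4 without day 0 replicate 1. Selp, the P-selectin of activated endothelium and platelets, read 2.60, 2.46 and 2.46 at day 0 and 6.58, 6.07, 7.60 and 7.11 at day 1, a change of 4.33 ± 0.61 (adjusted p = 5.9e-05). Icam1, the ligand of leukocyte integrins, changed by 2.24 ± 0.43 (adjusted p = 0.0014), and Nfkbia, the inhibitor that NF-kB induces to shut itself off, by 1.20 ± 0.30 (adjusted p = 0.01). Nfkbiz, an atypical inhibitor that coactivates secondary targets, changed by 3.20 ± 0.75 (adjusted p = 0.0062), with 7.58, 6.33, 6.85 and 6.90 at day 1 against 3.55, 3.71 and 3.88 at day 0. Bcl3 changed by 1.66 ± 0.41 (adjusted p = 0.0082), a call lost without day 0 replicate 1 (adjusted p = 0.064). Vcam1, the ligand of monocyte and lymphocyte integrins, was at 0.63 (adjusted p = 0.48). Among innate receptors 3 of 12 were higher: Cd14, the lipopolysaccharide co-receptor, read 2.47, 2.40 and 2.40 at day 0 and 7.33, 7.61, 8.31 and 8.23 at day 1 and changed by 5.45 ± 0.63 (adjusted p = 6.5e-06), and the adaptor Myd88 changed by 1.49 ± 0.35 (adjusted p = 0.0072). Clec4d reached 2.96 ± 0.92 (adjusted p = 0.033) and lost that call without 5 of the 7 arrays in turn, with no filter, with 32 added and with the replicate block. Tlr2, Tlr4 and Tlr7 were at 0.10, 0.56 and 0.01, none of them called. Among prostaglandin and leukotriene genes 3 of 11 were higher. Ptgs2, the inducible cyclooxygenase, read 4.16, 3.96 and 3.81 at day 0 and 7.90, 8.32, 7.11 and 7.70 at day 1 and changed by 3.78 ± 0.72 (adjusted p = 0.0013), Alox5ap, which hands arachidonate to 5-lipoxygenase, by 2.90 ± 0.48 (adjusted p = 0.00037), and Ptgis, prostacyclin synthase, by 1.25 ± 0.27 (adjusted p = 0.0035).

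Markers of monocytes and macrophages were higher in 7 of 25 tested genes and lower in 0, and their summed intensity went from 2037 to 2670 at day 0 to 2510 to 13567 at day 1. Without day 1 replicate 1 the count was 11, and it was 11 and 12 when the fit used the 15 infarct arrays of day 0 and day 1 of both strains or all 46 arrays. Arg1, the arginase of alternatively activated macrophages and also of neutrophils, read 2.25, 2.18 and 2.15 at day 0 and 5.53, 7.08, 10.91 and 9.34 at day 1. It thus differed by over 5 units between replicates 1 and 3, and its change was 6.02 ± 1.29 (adjusted p = 0.0031). Chil3, a chitinase-like protein of monocytes and activated macrophages, read 2.56, 2.43 and 2.41 at day 0 and 4.77, 4.88, 9.74 and 8.95 at day 1, a change of 4.62 ± 0.94 (adjusted p = 0.0021). Lgals3, galectin 3, read 3.20, 3.09 and 2.63 at day 0 and 6.68, 6.77, 9.92 and 9.16 at day 1, a change of 5.16 ± 0.91 (adjusted p = 0.00063). Fcgr3, a low-affinity receptor for immunoglobulin G, changed by 3.00 ± 0.53 (adjusted p = 0.00063). Markers of resident macrophages did not pass the test: Adgre1 was at -0.19 (adjusted p = 0.82), Csf1r at -0.37 (adjusted p = 0.73), Cx3cr1 at -0.16 (adjusted p = 0.86), Folr2 at -0.18 (adjusted p = 0.89) and Mrc1 at 0.26 (adjusted p = 0.67). Ccr2, which marks recruited monocytes, was at 1.47 (adjusted p = 0.18) with day 1 values of 4.91, 4.16, 7.93 and 6.22.

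Markers of lymphocytes and mast cells did not pass the test in any tested member, also with an unadjusted p under 0.05 in limma (0 of 3 T lymphocyte, 0 of 3 B lymphocyte and 0 of 2 mast cell genes). The T lymphocyte markers Cd3d and Cd3e were on the array, were not tested, and stayed near the background. Cd3d read 2.24, 2.10 and 2.08 at day 0 and 2.37, 2.08, 2.15 and 2.24 at day 1, and Cd3e read 2.33, 2.25 and 2.22 at day 0 and 2.37, 2.28, 2.28 and 2.25 at day 1. Interferon response genes were called higher in 1 of 19 (5.26%) and lower in 0 (2 without day 1 replicate 3). Complement genes were higher in 1 of 12 (8.33%), near the 9.48% of all genes called higher. The median change of the interferon list was -0.53, -0.21, 0.89 and -0.15 in day 1 replicates 1 to 4. That of the MHC and antigen presentation list was -0.27, -0.74, 0.76 and -0.21, so in both lists replicate 3 had the opposite sign to the others. MHC and antigen presentation genes had 1 of 9 called, Tap2, a peptide transporter, which was lower, at -0.92 ± 0.21 (adjusted p = 0.0058). The other members gave values: Ifit1 0.70 (adjusted p = 0.56), Irf7 0.42 (adjusted p = 0.6), C3ar1 0.99 (adjusted p = 0.44), H2-Ab1 0.18 (adjusted p = 0.83) and Cd74 0.02 (adjusted p = 0.99). The interferon call, Ifitm3 at 0.79 ± 0.25 (adjusted p = 0.035), was lost without 5 of the 7 arrays in turn, with quantile normalization, with the replicate block and on the 7 arrays alone. The complement call, the receptor C5ar1 at 1.35 ± 0.39 (adjusted p = 0.022), was lost without day 0 replicates 2 or 3 or day 1 replicate 3, with 32 added and on the 7 arrays alone.

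**Figure D3:**
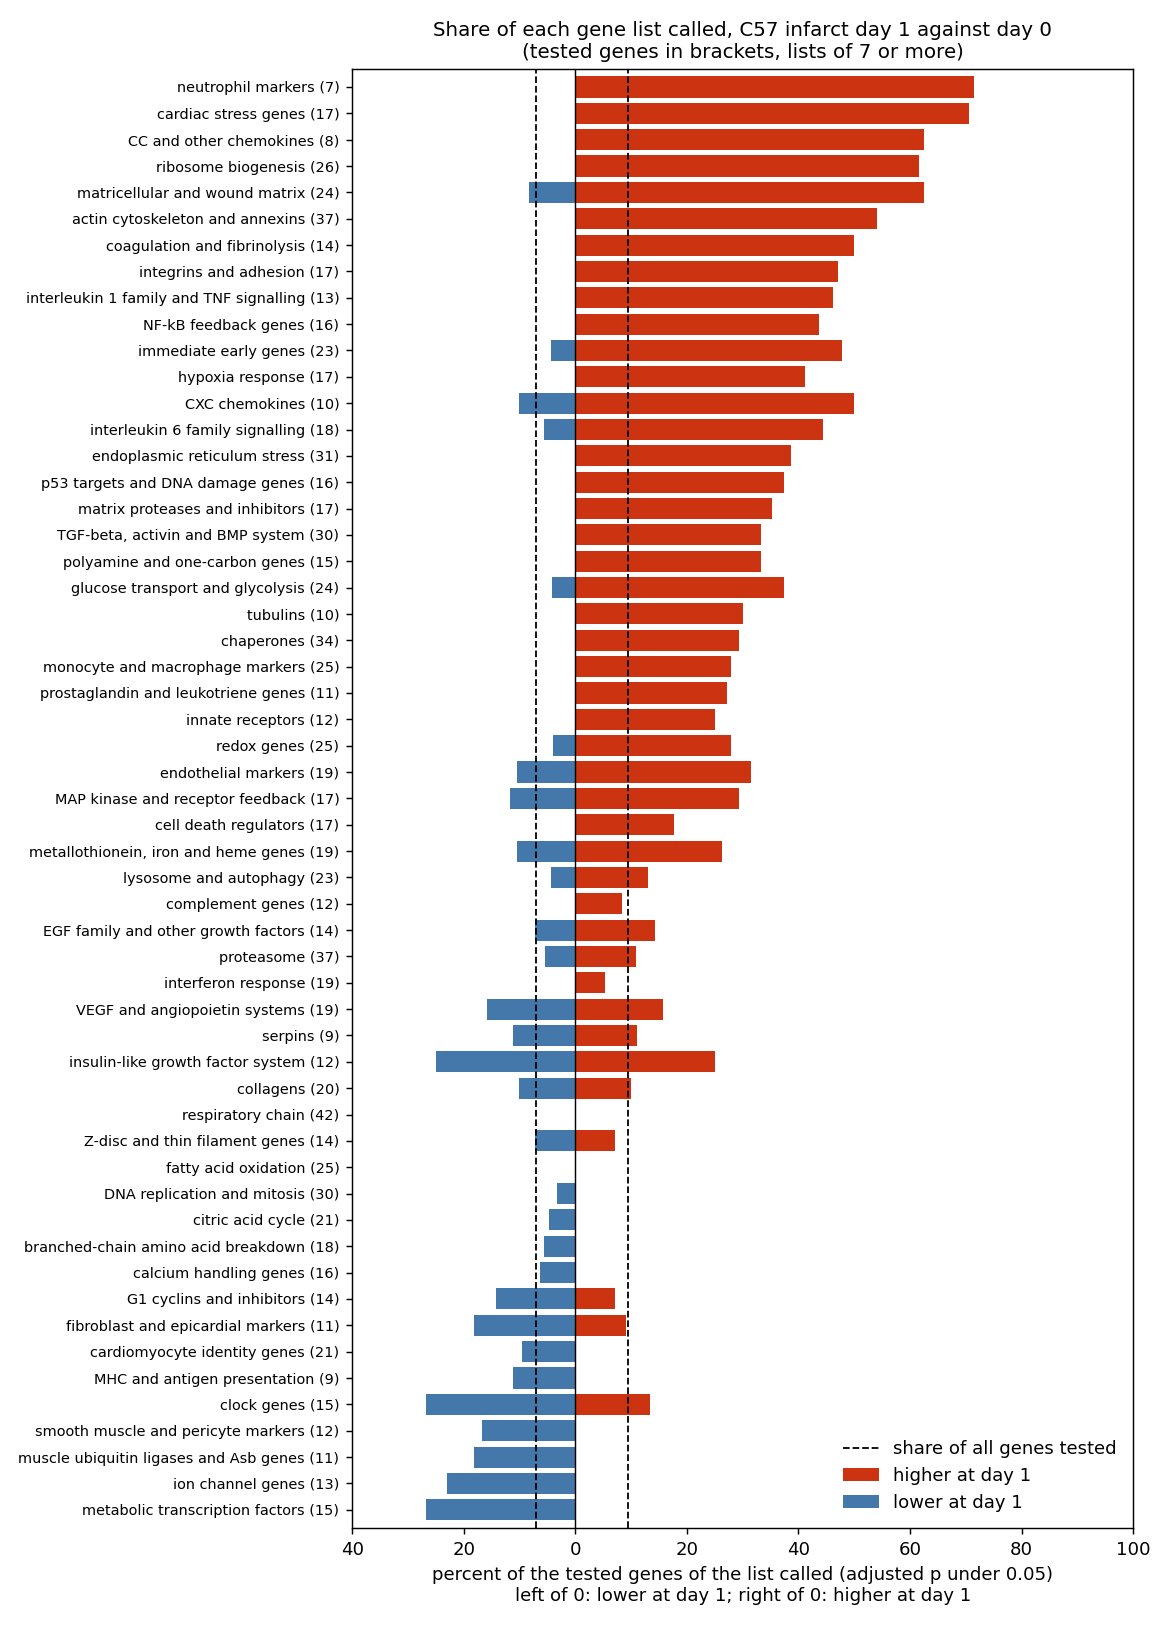
Percent of the tested genes of each list called higher (right) or lower (left) at day 1, for lists with 7 or more tested genes. Dashed lines give the 9.48% and 7.07% of all tested genes. Cardiac stress genes have 12 of 17 called higher, and respiratory chain and fatty acid oxidation genes have none called. The 7 neutrophil markers shown all lay near the array background at day 0, so the filter had part in their share.

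Immediate early genes, transcription factors and signal inhibitors that respond within the hour to many stimuli, were raised at day 1: 11 of 23 were higher and 1 lower. Atf3, a stress-induced factor, read 6.19, 6.12 and 6.02 at day 0 and 10.39, 8.80, 9.55 and 9.17 at day 1, a change of 3.37 ± 0.63 (adjusted p = 0.001). Myc read 3.98, 3.92 and 3.90 at day 0 and 7.17, 6.22, 9.24 and 8.98 at day 1, a change of 3.97 ± 0.61 (adjusted p = 0.00015), with replicates 3 and 4 well above 1 and 2. Maff changed by 3.58 ± 0.74 (adjusted p = 0.0025), Junb by 2.58 ± 0.52 (adjusted p = 0.0019) and the survival gene Ier3 by 2.59 ± 0.35 (adjusted p = 3.9e-05). Ier3 read 9.55, 9.97 and 9.24 at day 0 and 11.77, 12.14, 12.52 and 12.27 at day 1. Other well-known members of the list were not called: Fos was at 1.25 (adjusted p = 0.35), Jun at 0.38 (adjusted p = 0.58), Egr1 at -0.17 (adjusted p = 0.9) and Nr4a1 at -1.07 (adjusted p = 0.39). Klf2, a factor that shear stress maintains in endothelium, was the gene called lower, at -0.91 (adjusted p = 0.029), and the count was 0 without any 1 of the day 0 arrays or day 1 replicates 1 or 3. The CArG box, the site of serum response factor, was found in 0 of 8 promoters of the genes called higher and in 2 of 9 of those not called, against 1.47% of all promoters.

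In the list of MAP kinase genes and feedback inhibitors of receptor kinases 5 of 17 were higher and 2 lower. The falls numbered 0 or 1 without day 0 replicates 2 or 3 and 1 without day 1 replicate 4. Errfi1, which binds and blocks the EGF receptor, read 5.70, 6.14 and 6.78 at day 0 and 9.62, 9.57, 9.67 and 9.72 at day 1, with a mean of 9.65 ± 0.07 (SD, n = 4) in the infarcts, and changed by 3.44 ± 0.52 (adjusted p = 0.00012). Map2k3, the kinase above p38, changed by 1.48 ± 0.24 (adjusted p = 0.00024). In the EGF family Ereg, epiregulin, changed by 1.87 ± 0.39 (adjusted p = 0.0027), while the receptor Erbb3 was lower, at -1.14 ± 0.29 (adjusted p = 0.01), a call lost without day 0 replicate 1 (adjusted p = 0.054). Egfr was at -0.22 (adjusted p = 0.58) and Erbb4 at 0.31 (adjusted p = 0.41).

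In the cell cycle lists a gene of arrest rose and genes of division were not called higher. Cdkn1a, the p21 inhibitor of cyclin-dependent kinases, read 6.69, 6.05 and 6.86 at day 0 and 11.16, 10.50, 10.28 and 10.37 at day 1, a change of 4.04 ± 0.43 (adjusted p = 2.4e-06). Gadd45g, a stress sensor that binds the same kinases, read 4.44, 6.11 and 5.21 at day 0 and 10.25, 9.63, 10.40 and 10.78 at day 1, a change of 5.01 ± 0.49 (adjusted p = 7.9e-07). Among p53 targets and DNA damage genes 6 of 16 were higher, 3 without day 0 replicates 1 or 3, and Phlda1 changed by 2.94 ± 0.43 (adjusted p = 9.9e-05). Of 30 genes of DNA replication and mitosis 0 were called higher, 0 had a positive change with an unadjusted p under 0.05 in limma, and Mki67 was at -0.16 (adjusted p = 0.87) and Top2a at 0.06 (adjusted p = 0.96). Of the 30, 14 had a day 0 mean below the array medians, so the count takes in genes near the background. By day 5, 23 of the 30 were higher than at day 1, against 20.5% of all genes tested. Members near the background may have entered the test through day 5 arrays, so this count is a description. Cenpf, a kinetochore protein, was lower at 3.88, 3.30, 2.71 and 2.71 against 6.38, 7.07 and 6.40, a change of -3.46 ± 0.48 (adjusted p = 5.5e-05). Rbl2, the pocket protein p130 of quiescent cells, was lower, at -1.81 ± 0.43 (adjusted p = 0.0073). Ccnd2 was at -0.71 ± 0.20 (adjusted p = 0.02), a call lost without day 0 replicate 2 or day 1 replicate 3 and on the 7 arrays alone.

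Chaperones of the heat shock response rose, with 10 of 34 higher and 0 lower. Hspa1a and Hspa1b are near-identical genes of inducible Hsp70, so their probe sets may share signal. Hspa1b read 7.29, 6.83 and 6.75 at day 0 and 13.13, 11.72, 11.61 and 12.47 at day 1 and Hspa1a 3.94, 4.00 and 3.58 at day 0 and 11.63, 9.62, 9.66 and 11.20 at day 1. In both genes replicates 1 and 4 were the higher infarcts and every infarct lay over 4 units above every unoperated heart. The changes were 5.28 ± 0.69 (adjusted p = 2.7e-05) and 6.69 ± 0.92 (adjusted p = 4.7e-05). Hspb1, the small heat shock protein Hsp27, read 11.67, 11.94 and 11.79 at day 0 and 13.90, 13.73, 14.10 and 14.16 at day 1, a change of 2.17 ± 0.23 (adjusted p = 2.5e-06). Dnajb1, the partner of Hsp70, changed by 2.04 ± 0.37 (adjusted p = 0.00076) and Hsp90aa1, the inducible Hsp90, by 1.50 ± 0.25 (adjusted p = 0.00042). Mitochondrial chaperones were not called, with Hspd1 at -0.31 (adjusted p = 0.47) and Hspa9 at -0.17 (adjusted p = 0.7). A heat shock element (GAANNTTCNNGAA) was found in 1 of 7 promoters of the genes called higher and 2 of 21 of those not called, against 0.466% of all promoters.

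Genes of endoplasmic reticulum stress and the integrated stress response, which slow translation and raise folding capacity, were higher in 12 of 31 and lower in 0, and in 7 on the 7 arrays alone. Ppp1r15a, which restarts translation by dephosphorylating eIF2 alpha, read 6.29, 6.67 and 6.50 at day 0 and 9.89, 9.32, 9.37 and 9.27 at day 1, a change of 2.98 ± 0.48 (adjusted p = 0.00027). The amino acid transporter subunits Slc7a5 and Slc3a2 changed by 2.86 ± 0.39 (adjusted p = 4.8e-05) and 2.37 ± 0.41 (adjusted p = 0.00047). Cebpb, a transcription factor of inflammation and of this response, read 8.59, 8.95 and 8.76 at day 0 and 10.03, 10.33, 10.31 and 11.10 at day 1 and changed by 1.67 ± 0.42 (adjusted p = 0.01). Ddit4, an inhibitor of mTOR, reached 1.92 ± 0.59 (adjusted p = 0.032) and lost its call without 4 of the 7 arrays in turn, with no filter and with the 15 infarct arrays of day 0 and day 1. Called folding genes of the list, named for their promoters after their values were seen, moved less. Hspa5, the Hsp70 of the endoplasmic reticulum, read 12.57, 11.69 and 11.57 at day 0 and 12.47, 12.67, 13.18 and 12.61 at day 1, a change of 0.79 ± 0.25 (adjusted p = 0.038). Dnajc3, its partner, read 6.02, 6.75 and 6.25 at day 0 and 7.76, 7.78, 8.42 and 8.14 at day 1, a change of 1.69 ± 0.35 (adjusted p = 0.0023), and Creld2 read 5.72, 5.49 and 5.50 at day 0 and 5.42, 6.62, 8.74 and 8.11 at day 1, a change of 1.65 ± 0.53 (adjusted p = 0.038). In Creld2 replicate 1 lay below the day 0 values and the other 3 infarcts above them. The call of Hspa5 was lost without 4 of the 7 arrays in turn and that of Creld2 without 5, both also with no filter, with the replicate block and on the 7 arrays alone (adjusted p up to 0.19 and 0.15). Hsp90b1 was at 0.37 (adjusted p = 0.54), Calr at 0.13 (adjusted p = 0.82) and Ddit3 at 0.72 (adjusted p = 0.06).

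The promoters of these 3 genes are shown because each holds the endoplasmic reticulum stress element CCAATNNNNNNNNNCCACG, which is bound by ATF6 with NF-Y and is rare among promoters. They are the 250 bases before the RefSeq start on the plus strand of GRCm38.p6, Hspa5 at chr2:34771840-34772089, Dnajc3 at chr14:118937682-118937931 and Creld2 at chr15:88819396-88819645, with the matches in capitals on either strand.
Hspa5: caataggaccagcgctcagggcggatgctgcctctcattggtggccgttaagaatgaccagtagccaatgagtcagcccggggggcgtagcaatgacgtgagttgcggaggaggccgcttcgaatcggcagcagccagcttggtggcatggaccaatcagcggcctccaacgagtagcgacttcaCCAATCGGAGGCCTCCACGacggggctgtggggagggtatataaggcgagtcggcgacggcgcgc
Dnajc3: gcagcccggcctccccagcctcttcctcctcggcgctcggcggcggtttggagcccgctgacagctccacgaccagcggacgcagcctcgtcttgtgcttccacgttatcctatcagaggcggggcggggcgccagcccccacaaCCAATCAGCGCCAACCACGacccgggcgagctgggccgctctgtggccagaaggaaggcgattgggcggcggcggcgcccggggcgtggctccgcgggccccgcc
Creld2: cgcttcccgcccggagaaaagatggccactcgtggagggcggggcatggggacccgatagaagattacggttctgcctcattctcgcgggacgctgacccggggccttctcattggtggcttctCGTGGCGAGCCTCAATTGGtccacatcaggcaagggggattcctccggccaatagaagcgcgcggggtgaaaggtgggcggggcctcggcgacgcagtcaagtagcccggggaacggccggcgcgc
The element was found in 0.113% of all 32851 promoters and in 0.178% of those of tested genes. Of the list it was found in 3 of 11 promoters of genes called higher and in 4 of 16 of genes not called.

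Metal and heme genes held some of the largest changes. Hmox1, the inducible heme oxygenase, read 5.45, 4.57 and 5.42 at day 0 and 9.03, 11.01, 10.46 and 10.89 at day 1, a change of 5.21 ± 0.74 (adjusted p = 7e-05), with replicate 1 the lowest infarct. Mt2 and Mt1 encode metallothioneins, which bind zinc and copper. Mt2 read 8.20, 8.90 and 9.90 at day 0 and 13.83, 14.03, 13.28 and 13.72 at day 1 and Mt1 11.35, 11.73 and 12.39 at day 0 and 14.25, 14.29, 13.52 and 13.91 at day 1, and in both genes replicate 3 was the lowest infarct. The changes were 4.71 ± 0.40 (adjusted p = 1.5e-07) and 2.17 ± 0.31 (adjusted p = 6.1e-05). Hp, haptoglobin, changed by 3.60 ± 0.68 (adjusted p = 0.0012), and the zinc importer Slc39a14 by 1.28 ± 0.24 (adjusted p = 0.0012). In the list 5 of 19 were higher and 2 lower, the 2 being Fech, at -0.75 (adjusted p = 0.039), and Steap3, at -1.51 (adjusted p = 0.012). The count of falls was 1 or 0 without any 1 of the day 0 arrays and 1 without day 1 replicate 4. Tfrc, the transferrin receptor, was at -1.84 (adjusted p = 0.058) and Fth1 at 0.20 (adjusted p = 0.53). Both metallothionein promoters held the metal response element TGCNCNC, a short motif found in 44.4% of all promoters.

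Redox genes were higher in 7 of 25, 4 without day 0 replicate 1 and 4 on the 7 arrays alone, and lower in 1, which was Msrb2 (2 without day 1 replicate 2). Gclm, the modifier subunit of the glutathione-synthesising ligase, read 5.38, 5.91 and 5.81 at day 0 and 7.01, 8.74, 8.38 and 8.70 at day 1, a change of 2.51 ± 0.47 (adjusted p = 0.001). Txnrd1, the cytosolic thioredoxin reductase, changed by 1.97 ± 0.31 (adjusted p = 0.0002). Gclm is a target of the factor NRF2, and so is Srxn1, which changed by 1.65 ± 0.44 (adjusted p = 0.015), a call lost without day 0 replicates 2 or 3 (adjusted p up to 0.065). Nqo1, another target, was at 0.15 (adjusted p = 0.83). The mitochondrial Sod2 was at -0.56 (adjusted p = 0.38) and Cat at 0.01 (adjusted p = 0.98). Of 37 proteasome genes 4 were higher and 2 lower, near the background shares. The rises numbered 2 without day 0 replicate 3 or day 1 replicates 3 or 4, and the falls 1 without 5 of the 7 arrays in turn. Psmd11, a lid subunit, changed by 1.48 ± 0.20 (adjusted p = 4.8e-05).

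Hypoxia-responsive genes were higher in 7 of 17 and lower in 0. Adm, adrenomedullin, read 6.51, 6.62 and 5.99 at day 0 and 9.15, 9.41, 10.31 and 10.10 at day 1, a change of 3.37 ± 0.43 (adjusted p = 1.7e-05). Plin2, which coats lipid droplets, changed by 2.77 ± 0.53 (adjusted p = 0.0013), Hilpda, which blocks their breakdown, by 3.02 ± 0.56 (adjusted p = 0.001), Ero1a by 2.49 ± 0.39 (adjusted p = 0.0002) and Ndrg1 by 2.34 ± 0.39 (adjusted p = 0.00039). Several well-known targets of hypoxia-inducible factors were not called, namely Vegfa, at 0.33 (adjusted p = 0.7), Bnip3, at 0.45 (adjusted p = 0.32), and Egln3, at 1.15 (adjusted p = 0.052). The core of the hypoxia response element, ACGTG, was found in 3 of 6 promoters of the genes called higher and in 7 of 9 of those not called, against 16.6% of all promoters.

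Among genes of glucose uptake and breakdown 9 of 24 were higher and 1 lower. Slc2a1, the ubiquitous glucose transporter GLUT1, read 7.10, 6.95 and 6.57 at day 0 and 10.21, 9.81, 11.62 and 11.29 at day 1, a change of 3.86 ± 0.41 (adjusted p = 2.2e-06). Slc2a3, the leukocyte and neuronal GLUT3, changed by 3.87 ± 0.76 (adjusted p = 0.0015) from the background. Slc2a4, the insulin-regulated GLUT4 of muscle, read 10.88, 10.94 and 11.13 at day 0 and 10.19, 9.99, 7.03 and 8.46 at day 1 and was not called at -2.07 (adjusted p = 0.057), where replicates 1 and 2 lay less than 1 unit below the lowest day 0 array and replicates 3 and 4 farther. Slc16a3, the lactate exporter of glycolytic cells, changed by 4.08 ± 0.49 (adjusted p = 9.6e-06), and Pfkp, the platelet type of phosphofructokinase, by 2.43 ± 0.32 (adjusted p = 3.1e-05). The muscle isoforms Pfkm, Pgam2 and Eno3 were at -1.03 (adjusted p = 0.21), -1.25 (adjusted p = 0.077) and -1.11 (adjusted p = 0.1). Pdk4, which shuts pyruvate out of the mitochondria, read 8.45, 10.24 and 11.31 at day 0 and 13.61, 13.51, 11.77 and 12.78 at day 1, a change of 2.92 ± 0.86 (adjusted p = 0.025). Its call was lost without day 0 replicates 1 or 2, without day 1 replicates 1 or 2 and with no filter. The 1 gene called lower, Pfkfb2, was at -0.79 (adjusted p = 0.023), and the count of falls ranged from 0 to 3 when 1 array was left out.

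Cardiac muscle genes of stretch and stress rose while those of muscle identity were, with few exceptions, not called. Of the stress list 12 of 17 were higher and 0 lower. Ankrd2, a stretch-responsive ankyrin repeat protein better known from skeletal muscle, read 3.73, 3.12 and 3.11 at day 0 and 7.61, 7.86, 9.33 and 9.46 at day 1, a change of 5.25 ± 0.40 (adjusted p = 3.8e-08). Ccn2, the growth factor of fibrosis once called CTGF, read 8.79, 9.24 and 9.57 at day 0 and 12.82, 12.91, 13.51 and 13.22 at day 1, a change of 3.92 ± 0.27 (adjusted p = 9.2e-09). Flnc, filamin C of the Z-disc, read 9.46, 9.73 and 9.75 at day 0 and 11.85, 12.02, 13.07 and 12.77 at day 1 and changed by 2.78 ± 0.32 (adjusted p = 5.8e-06). Fhl1 changed by 2.68 ± 0.26 (adjusted p = 8.5e-07) and Xirp1, an actin-binding protein of intercalated discs, by 2.54 ± 0.35 (adjusted p = 4.2e-05). Of the natriuretic peptides Nppb changed by 2.17 ± 0.38 (adjusted p = 0.00063), and Nppa read 11.90, 12.16 and 11.26 at day 0 and 12.25, 12.63, 14.15 and 13.43 at day 1, a change of 1.35 ± 0.45 (adjusted p = 0.045). The call of Nppa was lost without 5 of the 7 arrays in turn and under 5 other settings. Myh7, the slow myosin of the fetal ventricle, was at 2.44 (adjusted p = 0.062) and Acta1 at 0.55 (adjusted p = 0.27).

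Of 21 cardiac identity genes 2 were lower and 0 higher, against 7.07% and 9.48% of all genes. No member had a positive change, and the list median was -0.14, -0.17, -0.82 and -0.41 in replicates 1 to 4. Mef2c, a transcription factor of the heart muscle lineage, read 8.33, 7.92 and 8.52 at day 0 and 7.08, 7.05, 6.49 and 6.42 at day 1, a change of -1.50 ± 0.32 (adjusted p = 0.0029). Mybpc3, myosin binding protein C, was at -0.99 ± 0.34 (adjusted p = 0.049) and lost its call without any 1 of the day 0 arrays, without day 1 replicates 3 or 4, with no filter, with the replicate block and on the 7 arrays alone. The major sarcomere genes gave Myh6 -0.43 (adjusted p = 0.48), Tnnt2 -0.20 (adjusted p = 0.58), Actc1 -0.14 (adjusted p = 0.61) and Ttn -0.46 (adjusted p = 0.35). Myh6 itself read 15.35, 15.41, 14.39 and 15.13 in the 4 infarcts and 15.62, 15.53 and 15.34 in the unoperated hearts. Tnni3, the cardiac troponin I used as a blood test of infarction, read 14.19, 14.07, 13.08 and 13.70 in the infarcts and 14.49, 14.48 and 14.46 before. The summed intensity of the 21 genes was 334598 to 344532 at day 0 and 210377 to 310035 at day 1.

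Falls among muscle genes were called in ion channels and in ubiquitin ligase subunits. Of 13 ion channel genes 3 were lower and 0 higher, and 8 had a negative change with an unadjusted p under 0.05. Kcnd2, a channel subunit of the transient outward current, read 7.26, 7.14 and 6.72 at day 0 and 5.43, 4.93, 4.06 and 4.07 at day 1, a change of -2.42 ± 0.46 (adjusted p = 0.0012). Kcnk3, a background potassium channel, read 10.05, 10.38 and 10.77 at day 0 and 9.08, 9.03, 7.50 and 7.82 at day 1, a change of -2.04 ± 0.48 (adjusted p = 0.0063). Kcnip2, the accessory subunit of the same outward current, read 8.27, 8.81 and 8.51 at day 0 and 7.61, 5.88, 4.16 and 5.04 at day 1 and reached -2.85 ± 0.96 (adjusted p = 0.048). Its call was lost without 6 of the 7 arrays in turn, with no filter and with the replicate block. The count of channel genes called lower was 6 without day 1 replicate 1, 5 with 32 added and 7 when the fit used the 15 infarct arrays of day 0 and day 1, all 46 arrays or the infarct arrays without 2 day 5 libraries that stand apart (C57 replicate 1 and MRL replicate 3). Of 16 calcium handling genes 1 was called, Cacnb2, at -2.46 ± 0.83 (adjusted p = 0.047), a call lost without 6 of the 7 arrays in turn, while 3 were called without day 1 replicate 2. Atp2a2, the calcium pump of the sarcoplasmic reticulum, was at -0.34 (adjusted p = 0.4) and Ryr2 at -0.38 (adjusted p = 0.62). In the list of Asb genes and muscle ubiquitin ligases 2 of 11 were lower, Asb10 and Asb15, the latter at -2.03 ± 0.37 (adjusted p = 0.00074).

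Few genes of mitochondrial energy metabolism were called, and most lay below day 0. Of 42 respiratory chain genes 0 were called by limma (1 without day 1 replicate 2), 6 had a negative change with an unadjusted p under 0.05, and 41 had a negative change of any size, with a median of -0.55. Of 25 fatty acid oxidation genes 0 were called by limma (1 without day 1 replicate 2), 3 were lower and 1 higher with an unadjusted p under 0.05, and the median was -0.59. The count of respiratory chain genes called lower was 11 when the fit used the 15 infarct arrays of day 0 and day 1, 16 when it left out the 2 day 5 libraries that stand apart, and 3 on all 46 arrays. For fatty acid oxidation the same fits gave 6, 8 and 1. The largest values were those of Sdhd, at -0.99 (adjusted p = 0.066), and Ndufs8, at -0.92 (adjusted p = 0.074). In the citric acid cycle Dlst was at -1.01 ± 0.33 (adjusted p = 0.039) and in branched-chain amino acid breakdown Mmut, methylmalonyl-CoA mutase, at -1.30 ± 0.36 (adjusted p = 0.018). Dlst lost its call without 5 of the 7 arrays in turn and Mmut without 4, each day 1 replicates 3 and 4 among them. Of 15 metabolic transcription factors 4 were lower, and the count was 0 without day 0 replicate 2, 1 without day 0 replicate 3 and 2 without day 1 replicates 3 or 4. Ppargc1b, a coactivator of mitochondrial genes, read 8.41, 8.95 and 9.26 at day 0 and 6.74, 7.36, 6.74 and 7.70 at day 1, a change of -1.74 ± 0.47 (adjusted p = 0.014), and its call was lost without day 0 replicates 2 or 3. Nr3c1, the glucocorticoid receptor, read 9.13, 9.11 and 8.73 at day 0 and 8.30, 8.29, 8.32 and 8.22 at day 1, a change of -0.70 ± 0.19 (adjusted p = 0.017) lost without day 0 replicates 1 or 2. Ppargc1a was at -1.45 (adjusted p = 0.43) and Ppara at -1.58 (adjusted p = 0.078).

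Output genes of the circadian clock fell together. Dbp, a factor whose level swings over the day, read 10.22, 10.41 and 10.17 at day 0 and 6.68, 6.14, 5.77 and 7.64 at day 1, a change of -3.71 ± 0.71 (adjusted p = 0.0014). Its relatives Hlf and Tef changed by -2.23 ± 0.45 (adjusted p = 0.0022) and -1.63 ± 0.38 (adjusted p = 0.0063), and Nr1d2, a repressor of the clock, by -1.78 ± 0.35 (adjusted p = 0.0015). Nr1d2 read 10.55, 10.22 and 10.47 at day 0 and 8.91, 9.11, 8.11 and 8.38 at day 1. In the list 4 of 15 were lower and 2 higher. Bhlhe40 was at 1.39 ± 0.33 (adjusted p = 0.0075) and Nfil3, which opposes Dbp at the same sites, at 1.90 ± 0.54 (adjusted p = 0.02). The rise of Nfil3 was lost without day 0 replicates 2 or 3 and that of Bhlhe40 without day 0 replicate 3. The core genes were not called, with Arntl at 1.46 (adjusted p = 0.059), Per1 at 0.54 (adjusted p = 0.35), Cry1 at 0.11 (adjusted p = 0.86) and Nr1d1 at -0.84 (adjusted p = 0.48). The labels give no time of day.

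Of 19 endothelial markers 6 were higher and 2 lower. Cldn5, a tight junction protein, read 6.69, 6.87 and 6.53 at day 0 and 9.15, 8.43, 8.22 and 9.01 at day 1, a change of 2.00 ± 0.49 (adjusted p = 0.0082). Nos3, the endothelial nitric oxide synthase, changed by 1.16 ± 0.31 (adjusted p = 0.014), a call lost without day 0 replicate 3 or day 1 replicate 3 (adjusted p up to 0.068). Aplnr, the apelin receptor, read 9.18, 8.71 and 8.48 at day 0 and 3.17, 6.18, 7.84 and 7.65 at day 1, a fall of wide spread in which replicate 1 was at the background, and changed by -2.58 ± 0.75 (adjusted p = 0.023). Kdr, VEGF receptor 2, was at -0.90 ± 0.26 (adjusted p = 0.021). The call of Aplnr was lost without any 1 of the day 0 arrays, with no filter and on the 7 arrays alone, and that of Kdr without any 1 of the day 0 arrays and without day 1 replicate 4. The count called higher was 3 without any 1 of the day 0 arrays, without day 1 replicates 1 or 3, with centred arrays and on the 7 arrays alone. Tek was at -0.28 (adjusted p = 0.51), Tie1 at -0.15 (adjusted p = 0.68) and Emcn at 0.55 (adjusted p = 0.22).

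In the VEGF and angiopoietin systems the ligand that rose was Pgf, placental growth factor. It read 4.47, 4.45 and 4.82 at day 0 and 8.52, 8.65, 8.17 and 9.48 at day 1, a change of 4.12 ± 0.48 (adjusted p = 6e-06), while Vegfb was at -0.71 (adjusted p = 0.46) and Vegfc at -0.25 (adjusted p = 0.65). The co-receptor Nrp1 was lower at -1.15 ± 0.28 (adjusted p = 0.0082), a call lost without day 0 replicate 1 (adjusted p = 0.066). The list had 3 higher and 3 lower of 19. The count of rises was 6 without day 1 replicate 1, 5 without replicate 2 and 5 on all 46 arrays, and that of falls 0 or 1 without any 1 of the day 0 arrays. Coagulation and fibrinolysis genes were higher in 7 of 14. Plaur, the urokinase receptor, read 4.86, 5.00 and 4.72 at day 0 and 8.45, 6.94, 8.12 and 8.61 at day 1, a change of 3.17 ± 0.50 (adjusted p = 0.00022). Fgl2, a membrane prothrombinase, changed by 3.06 ± 0.36 (adjusted p = 6.5e-06), Plat, tissue plasminogen activator, by 2.12 ± 0.34 (adjusted p = 0.00022), and Thbd, thrombomodulin of endothelium, by 1.91 ± 0.36 (adjusted p = 0.0013). F3, tissue factor, was at -0.73 (adjusted p = 0.054). Among the serpins Serpina3n, an acute phase protease inhibitor, read 3.84, 4.75 and 4.10 at day 0 and 9.96, 9.92, 8.98 and 10.05 at day 1 and changed by 5.50 ± 0.46 (adjusted p = 1.1e-07), and Serpinb9, the granzyme B inhibitor, was lower, at -1.66 ± 0.35 (adjusted p = 0.0028).

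Genes of the provisional matrix rose, with 15 of 24 matricellular and wound matrix genes higher and 2 lower. Thbs1, thrombospondin 1, which activates latent TGF-beta, read 3.64, 4.39 and 4.38 at day 0 and 9.77, 9.91, 10.23 and 8.82 at day 1, a change of 5.54 ± 0.58 (adjusted p = 2.2e-06). Cd44, the hyaluronan receptor, read 3.61, 3.27 and 3.30 at day 0 and 7.47, 7.37, 9.49 and 8.85 at day 1, a change of 4.90 ± 0.50 (adjusted p = 1.4e-06). Tnc, tenascin C, read 4.16, 3.45 and 3.09 at day 0 and 6.25, 7.36, 10.11 and 8.45 at day 1, a change of 4.47 ± 0.61 (adjusted p = 4.5e-05). Fn1, fibronectin, read 6.53, 6.94 and 6.66 at day 0 and 7.35, 8.24, 10.78 and 9.28 at day 1, a change of 2.20 ± 0.59 (adjusted p = 0.014) that was lost without day 0 replicate 1, without day 1 replicate 3 and on the 7 arrays alone. Lox, the collagen cross-linking oxidase, read 3.98, 3.96 and 2.98 at day 0 and 6.71, 6.74, 8.19 and 8.34 at day 1, a change of 3.86 ± 0.43 (adjusted p = 3.2e-06), and Postn, periostin of activated fibroblasts, 8.40, 8.08 and 8.97 at day 0 and 9.75, 9.48, 9.84 and 9.10 at day 1, a change of 1.06 ± 0.29 (adjusted p = 0.016). The 2 genes called lower were Sparcl1, at -1.24 (adjusted p = 0.0022), and Tnxb, tenascin X, at -1.69 (adjusted p = 0.013), with 1 left without day 0 replicate 3.

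Fibrillar collagens were not called: Col1a1 was at -0.19 (adjusted p = 0.83), Col1a2 at -0.60 (adjusted p = 0.32) and Col3a1 at -0.51 (adjusted p = 0.59). Both chains of basement membrane collagen, Col4a1 and Col4a2, were higher in every infarct. Col4a1 read 11.77, 11.55 and 11.76 at day 0 and 12.86, 12.94, 13.08 and 13.31 at day 1, a change of 1.36 ± 0.25 (adjusted p = 0.0008), and Col4a2 changed by 1.33 ± 0.23 (adjusted p = 0.00046). The 2 genes share a promoter and are transcribed away from each other. Col14a1, a fibril-associated collagen, read 5.65, 5.97 and 4.88 at day 0 and 3.78, 3.37, 3.36 and 3.34 at day 1, a change of -2.04 ± 0.48 (adjusted p = 0.0063) that was lost with 32 added. Col15a1 read 7.91, 7.86 and 7.17 at day 0 and 5.32, 4.75, 7.28 and 6.04 at day 1 and changed by -1.80 ± 0.47 (adjusted p = 0.013), with day 1 replicate 3 among the day 0 values and the call lost without day 0 replicates 1 or 2 and on the 7 arrays alone. Of 20 collagens tested 2 were higher, 4 without day 1 replicate 1, and 2 lower, 1 without day 0 replicates 1 or 2. Of 11 fibroblast and epicardial markers 1 was called higher and 2 lower. Gsn, gelsolin, was lower at -1.30 ± 0.43 (adjusted p = 0.042) and Dpt, dermatopontin, at -1.19 ± 0.38 (adjusted p = 0.037), and each lost its call without 6 of the 7 arrays in turn. Other markers were at -0.20 (adjusted p = 0.71) for Dcn, -1.02 (adjusted p = 0.072) for Lum and -0.22 (adjusted p = 0.78) for Tcf21, while the gene called higher, Pdgfra, was at 1.00 ± 0.29 (adjusted p = 0.023) and lost its call without 4 of the 7 arrays in turn. Their summed intensity was 10906 to 11829 at day 0 and 4257 to 8987 at day 1. Of the smooth muscle markers Myh11 was lower at -1.68 ± 0.38 (adjusted p = 0.0047) and lost that call on the 7 arrays alone, and Acta2 was at 0.06 (adjusted p = 0.93).

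In the list of matrix proteases and their inhibitors 6 of 17 were higher. Beside the inhibitor Timp1, the membrane-bound collagenase Mmp14 read 5.68, 4.48 and 5.54 at day 0 and 8.24, 8.22, 9.23 and 9.39 at day 1, a change of 3.53 ± 0.54 (adjusted p = 0.00015). Adamts4 and Adamts1, which cleave proteoglycans, changed by 3.99 ± 0.49 (adjusted p = 1.3e-05) and 2.57 ± 0.45 (adjusted p = 0.00051), and Adam8, a protease of leukocytes, by 4.40 ± 0.88 (adjusted p = 0.0018). Mmp2 was at -0.55 (adjusted p = 0.49) and Mmp9, the gelatinase of neutrophils, at 1.36 (adjusted p = 0.11). In the TGF-beta system 10 of 30 were higher and 0 lower. Inhbb, the beta chain of activin B, read 3.00, 3.02 and 2.94 at day 0 and 7.92, 7.46, 9.40 and 9.46 at day 1, a change of 5.57 ± 0.74 (adjusted p = 3.1e-05). Tgfb2 read 4.50, 4.44 and 4.92 at day 0 and 7.82, 7.96, 9.21 and 8.50 at day 1, a change of 3.75 ± 0.40 (adjusted p = 2.3e-06), and Tgfb3 was at -0.53 (adjusted p = 0.52). Inhba, the activin A chain, read 4.09, 4.22 and 5.21 at day 0 and 5.64, 6.49, 9.11 and 8.79 at day 1 and changed by 3.00 ± 0.67 (adjusted p = 0.0042), and Fstl3, which binds and blocks activins, by 2.79 ± 0.36 (adjusted p = 2.6e-05). Tgfbi read 5.56, 6.46 and 6.77 at day 0 and 7.53, 7.62, 11.07 and 10.01 at day 1, a change of 2.79 ± 0.77 (adjusted p = 0.017) that was lost without day 0 replicate 1, without day 1 replicates 3 or 4 and on the 7 arrays alone. Integrins and other adhesion receptors were higher in 8 of 17, and in 5 without day 0 replicates 1 or 2. Itga5, the fibronectin receptor chain, read 6.97, 7.03 and 7.78 at day 0 and 9.57, 9.73, 10.54 and 10.13 at day 1, a change of 2.73 ± 0.39 (adjusted p = 7.3e-05).

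Insulin-like growth factor genes went both ways. Igfbp3, a binding protein, read 7.19, 7.17 and 6.64 at day 0 and 10.04, 10.12, 10.96 and 11.11 at day 1, a change of 3.56 ± 0.54 (adjusted p = 0.00013), and the receptor substrate Irs2 changed by 2.08 ± 0.47 (adjusted p = 0.0048). Irs1, its relative, was at -2.02 ± 0.59 (adjusted p = 0.023), Igfbp5 at -0.92 ± 0.27 (adjusted p = 0.023) and Igf1 at -0.91 (adjusted p = 0.11). Irs1 lost its call without 4 of the 7 arrays in turn and Igfbp5 without 3, both also on the 7 arrays alone. In all 3 of 12 were higher and 3 lower, and the count of falls was 0 without day 0 replicates 1 or 3 and on the 7 arrays alone, and 1 without day 1 replicates 3 or 4.

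Genes of the actin cytoskeleton and annexins gave 20 of 37 higher and 0 lower, and all 37 changes were positive. The count was 13 without day 0 replicate 1, 12 without day 0 replicate 2 and 11 without day 1 replicate 3. Anxa2, which also anchors plasmin formation at cell surfaces, read 8.38, 8.45 and 8.75 at day 0 and 10.31, 10.58, 11.93 and 11.30 at day 1, a change of 2.50 ± 0.39 (adjusted p = 0.00019). Actn1, non-muscle alpha-actinin, read 6.52, 6.97 and 6.81 at day 0 and 7.85, 8.32, 10.43 and 10.01 at day 1, a change of 2.38 ± 0.49 (adjusted p = 0.0024). Msn, moesin, which ties actin to the membrane, read 10.21, 10.01 and 10.05 at day 0 and 10.90, 11.68, 12.63 and 12.04 at day 1, a change of 1.72 ± 0.37 (adjusted p = 0.003), and Anxa7 changed by 1.86 ± 0.27 (adjusted p = 9.2e-05). Cytoplasmic actin itself, Actb, was at 0.44 (adjusted p = 0.27). Tubb6, a beta-tubulin, read 6.26, 6.76 and 6.31 at day 0 and 9.62, 9.49, 11.52 and 11.17 at day 1, a change of 4.01 ± 0.48 (adjusted p = 9.6e-06), while Tuba8 was at -1.70 (adjusted p = 0.079).

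Ribosome biogenesis genes, which build ribosomal RNA and its particles in the nucleolus, were higher in 16 of 26 and lower in 0, and in 7 on the 7 arrays alone. Gnl3, nucleostemin, read 7.05, 7.18 and 7.54 at day 0 and 8.57, 8.75, 10.41 and 9.67 at day 1, a change of 2.10 ± 0.43 (adjusted p = 0.0023). Nip7, a pre-ribosome factor, read 6.54, 6.22 and 6.73 at day 0 and 7.47, 7.76, 9.08 and 8.71 at day 1 and changed by 1.76 ± 0.34 (adjusted p = 0.0015), and Rrp12 changed by 1.83 ± 0.46 (adjusted p = 0.01). Nop58 and Nhp2, of the particles that modify ribosomal RNA, changed by 2.00 ± 0.47 (adjusted p = 0.0068) and 1.97 ± 0.45 (adjusted p = 0.0053), and both lost their call on the 7 arrays alone. Beside them Odc1, the first enzyme of polyamine synthesis, read 9.20, 9.12 and 8.71 at day 0 and lay higher in every infarct, up to 11.52 in replicate 3, a change of 1.67 ± 0.32 (adjusted p = 0.0012). Sat1, which acetylates polyamines for export, read 6.60, 6.40 and 7.07 at day 0 and 11.18, 10.37, 9.54 and 9.29 at day 1, a change of 3.41 ± 0.51 (adjusted p = 0.00011), with replicate 1 highest and replicates 3 and 4 lowest. In cell death genes 3 of 17 were higher: Casp8 changed by 1.48 ± 0.32 (adjusted p = 0.0032) and Ripk3, the kinase of necroptosis, by 2.12 ± 0.59 (adjusted p = 0.018), a call lost without day 0 replicates 2 or 3, without day 1 replicate 4 and with 32 added. Among lysosome and autophagy genes 3 of 23 were higher and 1 lower (0 without 5 of the 7 arrays in turn), and Gabarapl1 changed by 1.06 ± 0.18 (adjusted p = 0.00039).

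The noninfarct region of the ventricle of the same strain had fewer calls. In 1 fit of all 46 arrays 1724 of 13138 probe sets were higher and 1430 lower in the infarct region at day 1, against 240 (1.83%) and 95 (0.723%) in the noninfarct region. By gene the noninfarct region had 155 genes called higher of 7608 (2.04%) and 53 lower (0.697%). Of the 721 genes higher in the infarct by the fit of the 23 infarct arrays 126 were also called higher there (17.5%, which is 81.3% of the 155), and of the 538 lower ones 42 (7.81%, or 79.2% of the 53). The labels do not say which regions share a heart. Same-numbered arrays of the 2 regions deviated together at day 0 (r over probe sets 0.435, 0.227 and 0.277) but not in every pair at day 1 (0.0964, -0.462, 0.154 and -0.27). With the replicate number as a random block across regions the test below called 96 probe sets. In the sample order, day 1 infarct replicates 2, 3 and 4 stand next to noninfarct replicates 1, 2 and 3. Same-numbered arrays of day 1 may therefore be different hearts, and neither these correlations nor the block can settle the pairing. A test of the difference between the changes called 23 of 13138 probe sets, 21 with a positive difference, infarct minus noninfarct (0.16%), and 2 with a negative one (0.0152%), which gave 13 and 1 of the tested genes. The count of probe sets was 1 without day 0 replicate 3 or day 1 replicate 3, 5 without day 0 replicate 2, 12 without day 0 replicate 1, 8 without day 1 replicate 4, and 47 and 42 without day 1 replicates 1 and 2.

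The 6 largest differences among called genes included 3 genes of leukocyte recruitment, Cxcl2, Selp and Il1b. Cxcl2 was at 1.20 ± 0.88 (adjusted p = 0.65) in the noninfarct region, a difference of 5.73 ± 1.24 (adjusted p = 0.036). Selp was at 0.06 ± 0.55 (adjusted p = 1) there, a difference of 4.27 ± 0.77 (adjusted p = 0.015), and Il1b at -0.02 ± 0.59 (adjusted p = 1), a difference of 3.70 ± 0.83 (adjusted p = 0.043). Slfn4, an interferon-inducible gene of myeloid cells, differed by 4.14 ± 0.82 (adjusted p = 0.018), Ch25h, which makes 25-hydroxycholesterol, by 4.07 ± 0.91 (adjusted p = 0.042), and Slc2a3 by 3.82 ± 0.82 (adjusted p = 0.036). Slfn4 read 1.85, 1.79 and 1.77 at day 0 and 4.23, 5.62, 8.13 and 7.01 at day 1 in the infarct and Ch25h 2.66, 2.45 and 2.51 at day 0 and 6.12, 5.55, 8.23 and 8.57 at day 1. Each of these 6 calls was lost without at least 2 of the 7 infarct arrays in turn: Selp without day 0 replicate 3 or day 1 replicate 3, Slfn4 without replicates 2 or 3 of day 0 and without 3 or 4 of day 1, and the others without each day 0 array and without day 1 replicates 3 and 4, with replicate 2 too for Il1b. The highest adjusted p without 1 array was 0.14, for Ch25h. With 32 added the calls of Slfn4, Ch25h, Slc2a3 and Il1b were lost (adjusted p up to 0.16), and with no filter those of Cxcl2, Ch25h, Slc2a3 and Il1b. With arrays centred on the median those of Ch25h and Il1b were lost.

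Other strong changes of the infarct were called outside it too. Lcn2 changed by 7.59 ± 0.39 (adjusted p = 2.9e-17) in the noninfarct region, and the difference was 0.61 ± 0.55 (adjusted p = 0.82). Serpina3n changed by 6.45 ± 0.45 (adjusted p = 4e-13) there, a difference of -0.95 ± 0.63 (adjusted p = 0.76). Mt2 changed by 4.11 ± 0.49 (adjusted p = 7.8e-07), a difference of 0.60 ± 0.69 (adjusted p = 0.86), and Dbp by -3.19 ± 0.75 (adjusted p = 0.012), a difference of -0.52 ± 1.06 (adjusted p = 0.92). Of the calprotectin genes S100a8 changed by 3.87 ± 0.60 (adjusted p = 7.6e-05) outside the infarct, with a difference of 3.59 ± 0.84 (adjusted p = 0.063) that missed the threshold. Hspa1b was at 0.97 ± 0.70 (adjusted p = 0.65) there, a difference of 4.31 ± 0.99 (adjusted p = 0.051). A difference that misses the threshold does not show that the regions responded alike.

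**Figure D4:**
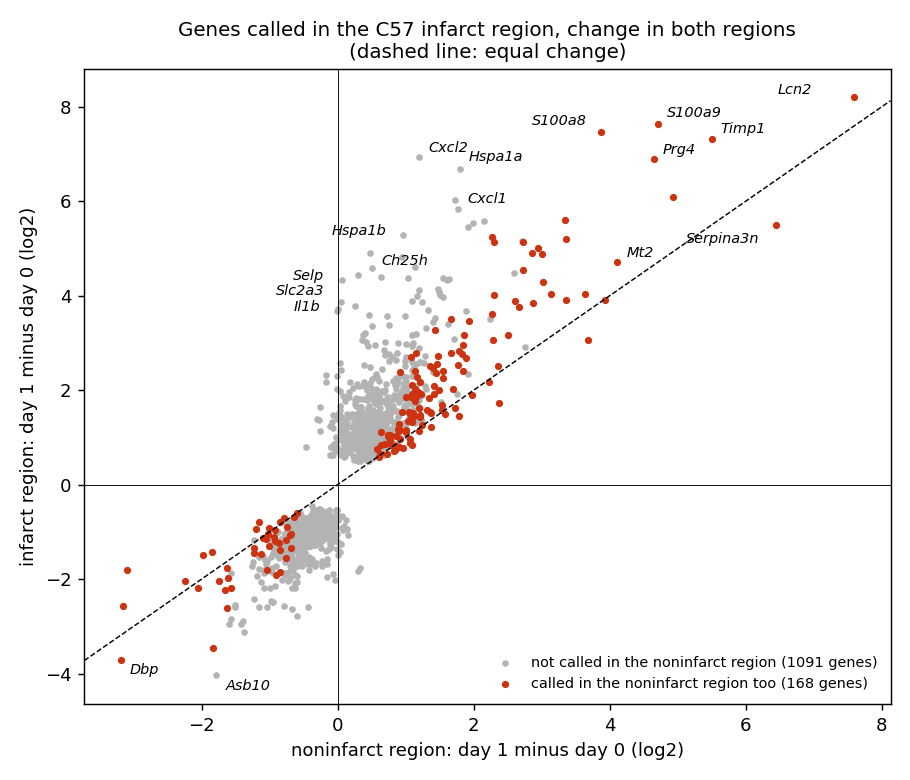
Log2 change from day 0 to day 1 in the infarct region (vertical) against the noninfarct region (horizontal) for the 1259 genes called in the infarct region, 1 point a gene. Red points were called in the noninfarct region too, and the dashed line marks equal change. Lcn2, Serpina3n, Mt2 and Dbp lie near the line, and Cxcl2, Selp and Il1b far above it. Since the genes were chosen by their vertical value, points tend to lie farther from 0 on that axis.

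The change from day 0 to day 1 in infarct tissue was set against that of MRL/MpJ mice, a strain studied for wound healing. Of 12834 probe sets 6 had a change that differed between the strains (0.0468%), all 6 more negative in MRL, and 0 were called the other way by limma, where 146 had a positive and 332 a negative difference with an unadjusted p under 0.05. Without a filter 12 were called. The 2 genes among them (0.0263% of the 7608) were Angpt1, angiopoietin 1, with a difference of -1.92 ± 0.28 (adjusted p = 0.0044), and Kcnj5, a potassium channel, with -1.36 ± 0.20 (adjusted p = 0.0044). In C57 both were near the background on the 7 arrays, Angpt1 at 3.02, 2.84 and 3.08 at day 0 and 2.95, 2.78, 2.85 and 2.88 at day 1 and Kcnj5 at 3.17, 3.08 and 3.08 at day 0 and 3.15, 2.95, 2.97 and 2.98 at day 1, and their C57 changes were -0.11 (adjusted p = 0.76) and -0.10 (adjusted p = 0.71). Both strain differences lost their call with 32 added. So near the background a fall in C57 could hardly show, and both genes passed the filter through arrays other than these 7. The test therefore cannot tell whether the C57 response of these genes differs.

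At day 5 some of the changes had receded and others had grown. The day 5 and day 0 comparisons share the 4 day 1 arrays, so chance in those arrays enters both. Of 12834 probe sets 2378 were higher at day 5 than at day 1 (18.5%) and 2016 lower (15.7%), which by gene was 20.5% and 14.8% of 7608. Among genes called at day 1 the largest declines from day 1 to day 5 were those of Cxcl2, Lcn2, Hspa1a, S100a8, S100a9 and Ankrd2. Cxcl2 read 2.73, 2.71, 2.74 and 3.87 at day 5, a difference of -6.75 ± 0.89 (adjusted p = 9.8e-06), near the levels of the unoperated heart. Ankrd2 read 3.09, 3.07, 3.25 and 2.46, a difference of -5.59 ± 0.37 (adjusted p = 2e-09), and Hspa1a 3.99, 3.93, 3.96 and 4.76, a difference of -6.37 ± 0.85 (adjusted p = 1.2e-05). Lcn2 read 4.11, 4.69, 4.42 and 4.13, a difference of -6.56 ± 0.33 (adjusted p = 7.6e-11), still over a unit above its day 0 values. S100a9 differed by -5.83 ± 0.49 (adjusted p = 3.8e-08) and S100a8 by -6.13 ± 0.44 (adjusted p = 5.2e-09).

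The largest gains from day 1 to day 5 among genes called at day 1 were those of Fndc1, Col14a1, Col15a1, Postn, Lox and Naalad2, and 4 of the 6 had first fallen. Fndc1, a fibronectin type III domain protein, went from 6.07, 6.16 and 5.08 at day 0 and 4.76, 4.47, 2.91 and 3.69 at day 1 to 9.79, 10.09, 10.29 and 10.38 at day 5, a difference of 6.18 ± 0.40 (adjusted p = 1.3e-09). Col14a1 reached 9.48, 9.77, 9.48 and 9.63, a difference of 6.13 ± 0.44 (adjusted p = 5.2e-09), and Col15a1 9.73, 10.23, 10.21 and 10.43, a difference of 4.30 ± 0.44 (adjusted p = 3.8e-07). Naalad2 differed by 4.09 ± 0.38 (adjusted p = 1.6e-07). Postn reached 13.98, 13.21, 13.80 and 14.16, a difference of 4.24 ± 0.27 (adjusted p = 1.1e-09), and Lox 11.28, 11.81, 11.65 and 12.09, a difference of 4.21 ± 0.39 (adjusted p = 1.5e-07). Both had already risen at day 1. Some day 1 rises persisted without a called difference: Timp1 read 9.97, 11.07, 10.85 and 11.94 at day 5, Hmox1 8.29, 10.74, 10.04 and 10.28 and Thbs1 9.60, 10.57, 9.87 and 11.81. Among the falls Dbp stayed at 6.33, 7.64, 6.17 and 6.58, Asb10 at 7.61, 4.07, 4.75 and 4.01 and Kcnd2 at 6.23, 4.02, 4.68 and 3.94, while Ogn rose to 10.51, 9.87, 10.09 and 10.76, a difference of 3.94 ± 0.50 (adjusted p = 6.1e-06). In the macrophage list, 10 of whose 25 tested genes lay below the array medians at day 0, 17 were higher at day 5 than at day 1 and 1 lower. Over all genes tested the shares were 20.5% and 14.8%, and the filter may have had part in the list's count.

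**Figure D5:**
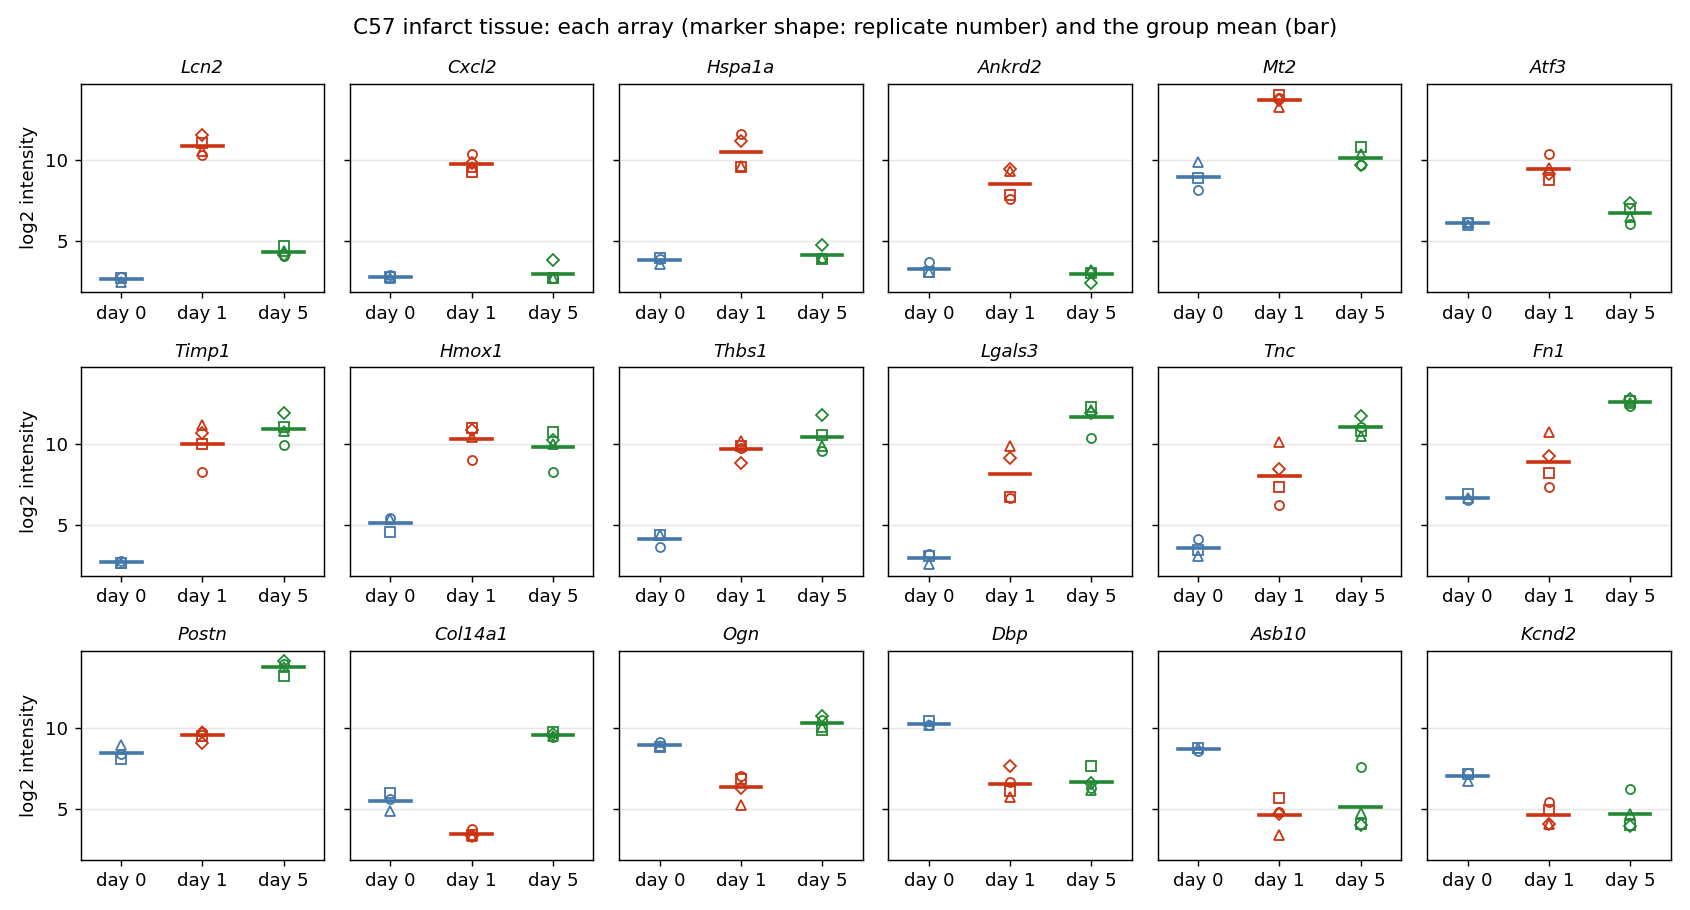
Log2 intensity in C57 infarct tissue at day 0 (3 arrays), day 1 (4 arrays) and day 5 (4 arrays) for 18 named genes. Marks are arrays, with the shape giving the replicate number, and bars are group means. Lcn2, Cxcl2, Hspa1a and Ankrd2 peak at day 1, Lgals3, Tnc, Fn1 and Postn are highest at day 5, and Col14a1 and Ogn dip at day 1.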

How the data were processed

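Tissue RNA was hybridised to Affymetrix MOE430A oligonucleotide arrays, 1 sample an array. The values used are the probe set intensities that the authors deposited as one table, made with GCRMA (version not given) per the submitters' processing notes. The deposited intensities are linear, from 1.032 to 54627.6, and were turned to log2 with no pseudocount. GCRMA lowers dim probe sets close to the background, so log2 changes of dim genes can be large, and all changes were also computed on log2 of the intensity plus 32. An array has no read depth, and the number of arrays limits the precision.

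The 64 control probe sets were left out. Of the other 22626, 12834 (56.7%) lay above their array's median on at least 3 of the 23 infarct arrays and were tested. Groups came from the sample titles. limma 3.58.1 in R 4.3.3 (lmFit, eBayes) was fitted on the 23 infarct arrays in 6 groups, and on all 46 arrays in 12 groups for the comparison of regions. Tests were two-sided and adjusted by the Benjamini-Hochberg method, with a threshold of 0.05. Tables were made with Python 3.11.15, pandas 2.3.3, numpy 2.4.6 and matplotlib 3.10.9, and the fit was tested on simulated data.

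Names came from GEO's platform annotation. Of the 22626 probe sets 20380 had 1 gene symbol, 691 several and 1555 none. Of those with 1 symbol, 20351 matched RefSeq by Entrez number, and 0 symbols differed. A gene was given by the tested probe set whose mean over the 46 arrays was highest, which left 7608 of 12393 genes, and 993 of the 1324 genes in 63 lists. Promoters are those of RefSeq for GRCm38.p6.

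The members and lists were chosen with earlier results of these data known. Genes named with values were the 12 largest rises and 12 largest falls with days that do not overlap and means above every array median, and the 10 largest rises from and 6 largest falls to below those medians, with 32 added. To these came up to 5 called genes of each list by absolute change with 32 added, the 8 called genes with the largest SD among the day 1 arrays, and the 6 largest of each difference test and of each sign of day 5 minus day 1. Well-known members that were not called, and a few called ones (Cxcl12, Nppb, Lifr, Klf2, Fech, Steap3, Pfkfb2, Sparcl1, Tnxb, Hspa5, Dnajc3 and Creld2), were named after their values were seen. Alternatives changed the filter, the scaling, the offset, the variance trend, the arrays in the fit and the replicate block, and left out each C57 infarct array of the comparison in turn.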

Additional observations from a re-analysis of the deposited data

Results flagged for a closer look

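A day 1 array stood apart from the other 3 beyond Dixon's 95% critical value for groups of 4 in 7 results, a size that chance alone gives in about 1 in 20 groups. The results looked at were many, namely named genes and those of the 63 gene lists that had tested members. Some such results are therefore expected by chance. Serpina3n read 8.98 in replicate 3, below the other infarcts, and the median change of the serpin list was 1.02 there. Htra3, the secreted serine protease, read 4.38 in the same array, the lowest of the 4. Replicate 4 was apart in Fmo1, a flavin monooxygenase, at 4.95, and in the median change of the endothelial markers, at 0.32. Replicate 1 was apart in Col14a1, at 3.78, and in Kcnj5, at 3.15, and both lie below the array medians.

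By limma, the change from day 0 to day 1 differed between the strains for Angpt1 (MRL minus C57 -1.92) and Kcnj5 (-1.36). Both genes lay near the background on the C57 arrays of both days, where a fall could hardly show, and both calls were lost with 32 added. Between the regions of C57 hearts the change differed for Cxcl2 (infarct minus noninfarct 5.73), Selp (4.27), Slfn4 (4.14), Ch25h (4.07), Slc2a3 (3.82) and Il1b (3.70). Each of these region calls was lost when single infarct arrays were left out in turn, for 2 arrays in Selp and up to 6 in Il1b.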

How the results depend on the processing

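The count of 1995 probe sets called at day 1 ranged from 1178 to 2351 with 1 of the 7 arrays left out. It was 1323, 1178 and 1251 without day 0 replicates 1, 2 and 3 and 2351, 2295, 1351 and 1540 without day 1 replicates 1 to 4. Rises (1205) then ranged from 776 to 1524 and falls (790) from 353 to 986. The count was 3154 on all 46 arrays and 3018 without the 2 day 5 libraries that stand apart, with 1430 and 1433 falls, and the 15 infarct arrays of day 0 and day 1 gave 1210 falls. Quantile normalization split the calls into 1137 rises and 1062 falls and centring on the median into 1055 and 827. Day 0 and day 1 mice sharing a replicate number correlated in their deviations at 0.0978, 0.0753 and -0.0752, so they share only a number. The replicate block gave 1703 calls. The block across regions by replicate number, which may not match hearts at day 1, was entered as a random effect. It moved the region count from 23 to 96 (86 positive, 10 negative). In the region test without the block, centring gave 14 (13 and 1), and leaving out 1 array gave 1 to 47 (1 to 44 positive, 0 to 4 negative). The strain count of 6 was 12 with no filter (2 positive, 10 negative) and 6 to 7 with 1 array left out (0 to 1 positive, 6 to 7 negative). From day 1 to day 5, 4394 were called, 8146 with no filter (5577 lower), and 3229 to 4678 with 1 array left out (1816 to 2610 higher, 1413 to 2068 lower). Of 240 named results of single genes, 77 lost their call under at least 1 alternative and 0 changed sign. A call that is lost with fewer arrays has fewer samples behind it, and for other settings the cause was not tested. Genes near the array background have changes of uncertain size, and 3 against 4 arrays limit the detection of small ones.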

Other observations

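Enzymes of branched-chain amino acid breakdown, a pathway of muscle mitochondria, had 1 of 18 genes called lower (Mmut) and 0 higher, and all 18 changes were negative, with a list median of -0.89 against -0.0064 over all genes. The summed intensity of the 18 genes was 18472 to 19357 at day 0 and 7234 to 13654 at day 1, and the medians of the 4 infarcts were -0.58, -0.44, -1.44 and -0.99. The count called lower was 8 when the fit used the 15 infarct arrays of day 0 and day 1, and 0 without day 0 replicate 3 or day 1 replicates 3 or 4. Ivd, isovaleryl-CoA dehydrogenase, read 10.48, 10.59 and 10.50 at day 0 and 9.69, 9.54, 8.41 and 9.20 at day 1, so the days did not overlap, and was not called at -1.31 (adjusted p = 0.13 by limma).

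In the list of Z-disc and thin filament genes 1 of 14 was higher and 1 lower. Pdlim5, a scaffold of the Z-disc, read 12.33, 12.42 and 12.40 at day 0 and 12.91, 13.23, 12.92 and 13.06 at day 1, a change of 0.65 ± 0.18 (adjusted p = 0.018 by limma) that was lost without any 1 of the day 0 arrays, with centred arrays and on the 7 arrays alone. Myom2, an M-band protein, was the lower one, at -1.10 ± 0.35 (adjusted p = 0.039 by limma), a call lost without 5 of the 7 arrays in turn, with no filter and with the replicate block. Tcap, telethonin, which anchors titin, read 12.69, 12.88 and 12.81 at day 0 and 11.73, 11.63, 9.75 and 10.99 at day 1 and was not called at -1.77 (adjusted p = 0.077 by limma). Among tubulins 3 of 10 were higher: beside Tubb6, Tubb2a changed by 1.55 ± 0.39 (adjusted p = 0.01 by limma) and Tubb5 by 1.31 ± 0.37 (adjusted p = 0.021 by limma). Of the erythroid and platelet markers the erythroid genes Alas2 and Slc4a1 were at -0.01 (adjusted p = 0.99 by limma) and 0.19 (adjusted p = 0.65), while both called genes, Ppbp and Pf4, are platelet chemokines. The call of Pf4 was lost without 5 of the 7 arrays in turn. The platelet markers Itga2b, Gp9 and Gp1bb were not tested and lay between 1.37 and 2.96 on the 7 arrays.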
